A study of Mus musculus with 8 samples.

Results

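Adipokines are proteins that fat tissue secretes into the blood, and 8 of their genes were followed here out of 24464 gene symbols in the annotation: Cfd, Adipoq, Lep, Retn, Rbp4, Nampt, Rarres2 and Apln. They were taken by symbol, and the level of a gene was the FPKM (fragments per kilobase of transcript, scaled to the total of the library) summed over its transcripts. The set was chosen by the FPKM values of the MKRN1-null and WT fat libraries, so its values in that contrast are a description and carry no test. All 8 genes had an FPKM of at least 1 in at least 2 of the 4 fat libraries, whereas 4 of the 8 did so in liver.

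Adipocytes release hormones in step with their fat content and insulin state. Leptin reports fat stores to the brain, adiponectin acts on liver and muscle through AMPK and ceramide metabolism, and adipsin, the product of Cfd, is the serine protease that starts the amplification loop of the alternative complement pathway. In rodents, adipsin transcripts are known to be low in obesity, while leptin transcripts are known to be high.

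The libraries came from subcutaneous fat and liver of male C57BL/6 mice, either WT or null for MKRN1, an E3 ubiquitin ligase. By the labels every mouse, WT included, received a high-fat diet for 19 weeks from 6 weeks of age and was 24 weeks old, numbers that do not add up exactly, and the study's methods describe a shorter diet. There were 2 libraries per genotype and tissue (8 in all), and no chow-fed animals were analysed here. The null allele is carried by all cells of the animal, so fat and liver values are not those of a fat-specific or liver-specific deletion. The null mice and WT littermates were bred from heterozygotes after backcrossing. On a high-fat diet, the study reports, MKRN1-null mice weighed less and held less body fat than WT mice, with little difference in plasma leptin. Genotype and adiposity therefore cannot be told apart in these libraries.

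Mkrn1 itself checked the genotype labels. Its FPKM in fat was 16.8 and 19.3 in the WT libraries and 4.58 and 2.90 in the MKRN1-null libraries. In liver it was 9.42 and 10.1 against 2.86 and 2.21. The null libraries were below the WT libraries in both tissues, with residual Mkrn1 reads at 0.16 to 0.29 times the WT mean. The depth read from the ratio of coverage to FPKM was 5.72 to 9.24 Gb of aligned bases per library, and MKRN1-null fat replicate 2 was the shallowest. That library stood apart: 15 skeletal muscle genes made up 23.0% of its summed FPKM, against 0.0182% to 0.0823% in the other 3 fat libraries. The summed FPKM of 12 adipocyte marker genes was 16260 there and 32562, 36089 and 37667 in the others. The summed FPKM of 6 brown adipocyte genes was 558 there and 43.8 to 86.8 in the others, but Cox8b alone gave 489 of it. Ucp1, Cidea and Ppargc1a were also highest in MKRN1-null fat replicate 2, whereas Elovl3 and Dio2 were below both WT libraries there. The part of muscle tissue in these values of that library was not tested. FPKM is a share of the library, so levels in fat are given for every library, and the differences of the 8 genes also without this one.

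Cfd, encoding adipsin, had the widest gap between genotypes of the 8 genes in fat. Its FPKM was 1231 and 1271 in WT fat and 5077 and 5483 in MKRN1-null fat. Both null values were above both WT values, and by FPKM the libraries of each genotype lay close together, the muscle-containing library included. Relative to the adipocyte marker sum the null libraries differed, at 3.69 and 9.24 times the WT mean. Among all genes in a library, Cfd ranked 35th and 38th by FPKM in WT fat and 6th and 15th in MKRN1-null fat. The log2 fold change on log2(FPKM + 1) was 2.08, and it was 2.02 without MKRN1-null fat replicate 2.

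Adipoq, encoding adiponectin, showed no such separation. Its FPKM was 2899 and 2873 in WT fat and 3824 and 1666 in MKRN1-null fat. The WT pair sat between a higher and a lower null library, so the groups overlapped, and the log2 difference of -0.19 became 0.41 without MKRN1-null fat replicate 2. It was the most abundant of the 8 transcripts in WT fat and gave way to Cfd in both null libraries.

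Lep, encoding leptin, was at an FPKM of 1333 and 1233 in WT fat and 1347 and 306 in MKRN1-null fat. Null replicate 1 lay just above the higher WT library and null replicate 2 was far below both, so the group difference of -0.997 on the log2 scale came from 1 library. Without that library the log2 difference was 0.07. Retn, encoding resistin, a small cysteine-rich hormone that in mice comes mainly from adipocytes, was at 1425 and 1485 in WT fat and 2239 and 922 in MKRN1-null fat. Its pattern was that of Adipoq: replicate 1 above the WT pair, replicate 2 below it. The log2 difference was -0.02, and 0.62 without replicate 2.

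**Figure D1:**
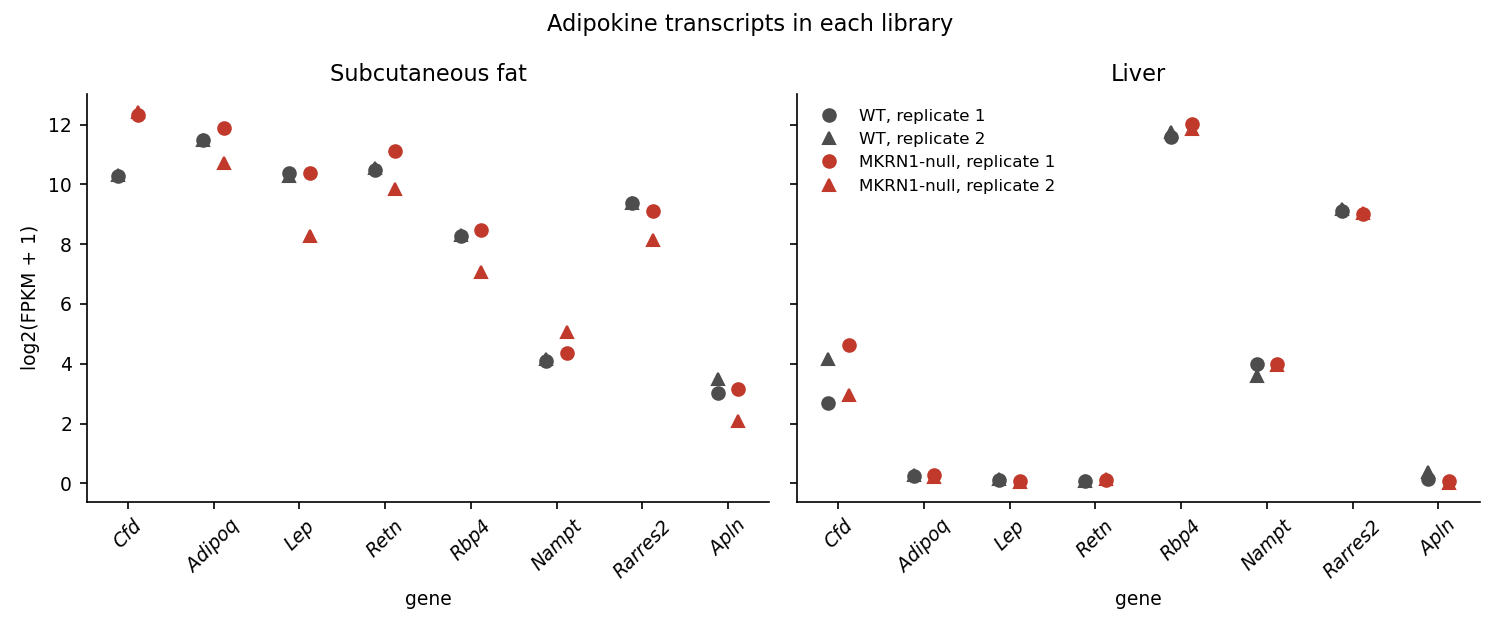
Level of the 8 adipokine genes, as log2(FPKM + 1), in each library of subcutaneous fat (left) and liver (right). Grey marks WT and red MKRN1-null, circles replicate 1 and triangles replicate 2. In fat both MKRN1-null values of Cfd (5077 and 5483 FPKM) stand above the WT values (1231 and 1271 FPKM), while for Adipoq, Retn and Rbp4 the null libraries lie on either side of the WT pair. Adipoq, Lep, Retn and Apln are near 0 in every liver library.

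The carriers and signals that other organs also make were lower or less separated. Rbp4, the plasma carrier of retinol, had an FPKM of 305 and 317 in WT fat and of 351 and 134 in MKRN1-null fat. The null values lay on both sides of the WT pair, and the log2 difference of -0.51 became 0.18 without replicate 2. Rarres2, encoding the chemoattractant chemerin, was at 664 and 665 in WT fat and at 549 and 283 in MKRN1-null fat. Both null values were below both WT values, and the log2 difference of -0.75 became -0.28 without MKRN1-null fat replicate 2.

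Nampt, the rate-limiting enzyme of NAD salvage that is also found outside cells under the name visfatin, was the second gene with both null values above both WT values. Its FPKM was 16.1 and 17.0 in WT fat and 19.4 and 32.2 in MKRN1-null fat. Most of the log2 difference of 0.57 belonged to replicate 2, and 0.21 remained without it. Nmrk2, a nicotinamide riboside kinase of muscle in the same NAD pathway, was at 86.0 in that library and at most 0.132 in the other 3, a gene named after its values were seen. Apln, encoding the peptide ligand of the apelin receptor, was at 7.07 and 10.2 in WT fat and 7.88 and 3.20 in MKRN1-null fat, with overlapping groups and a log2 difference of -0.64, or -0.10 without replicate 2.

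Thus 2 of the 8 genes (Cfd and Nampt) had both null values above the WT values, 1 (Rarres2) had both below, and 5 overlapped. Among the 12150 genes with an FPKM of at least 1 in at least 2 fat libraries, 9.03% lay wholly above WT and 36.1% wholly below. Under limma's moderated test 0 of these genes passed an adjusted p of 0.05, while 783 (6.44%) had an unadjusted p under 0.05. Mkrn1 itself did not pass, at a log2 difference of -2.02 (adjusted p = 0.680, limma), so the test in fat did not call the gene that defines the genotypes. At nominal limits, a log2 difference of 0.58 or more in size (the fold limit of the study) and an unadjusted limma p no higher than 0.05, 86 genes (0.708%) were higher and 650 (5.35%) lower in MKRN1-null fat. Higher genes were 11.7% of these calls, 23.9% with median-of-ratios scaling and 31.1% when quantiles were equalized. In whole tissue, fewer cells of a type and less RNA per cell cannot be told apart. With 2 replicates a group, described by the study as independent, every p-value here measures only the spread between these samples.

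Relative to the adipocyte content of each library, the picture for replicate 2 shifted upward. The 12 markers (Fabp4, Plin1, Cidec and others, none of them one of the 8 genes) served as the denominator, and Fabp4 alone gave 78.4% to 83.3% of their sum. Cfd amounted to 3.78% and 3.52% of the marker sum in WT fat and to 13.5% and 33.7% in MKRN1-null fat, which was 3.69 and 9.24 times the WT mean. On this scale Adipoq stood at 8.90% and 7.96% in WT fat and at 10.2% and 10.2% in MKRN1-null fat. Retn stood at 4.38% and 4.11% against 5.94% and 5.67%. Per adipocyte marker, therefore, both null libraries were above both WT libraries for Adipoq and Retn as well as for Cfd and Nampt.

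Lep remained low in replicate 2 per adipocyte marker. It amounted to 4.09% and 3.42% of the marker sum in WT fat and to 3.58% and 1.88% in MKRN1-null fat. Null replicate 1 lay between the WT libraries and replicate 2 was at 0.50 times the WT mean. Rarres2 and Apln were below both WT values in both null libraries, and Rbp4 overlapped, so that 4 genes were wholly higher, 2 wholly lower and 2 overlapping. Over all tested genes 13% were wholly higher and 14.9% wholly lower on this scale.

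The choice of denominator mattered for several of these placements. With the geometric mean of the 12 markers, a scale added after the data were seen in which Fabp4 weighs no more than any other marker, Cfd was at 3.67 and 5.41 times the WT mean. Adipoq was then at 1.20 and 0.71 times and Retn at 1.39 and 0.78 times, which overlapped WT again. Lep, at 0.95 and 0.29 times, was wholly below WT, as were Rarres2 and Apln. On this scale 7.42% of all tested genes were wholly higher and 42.5% wholly lower. Slc2a4, Cidea and Adrb3, which count among the 12 markers, were higher in replicate 2 than in both WT libraries (138.7, 33.2 and 93.6 FPKM), and muscle also expresses Slc2a4. Slc2a4 and Adrb3 were above both WT libraries in replicate 1 too (58.5 and 93.3 FPKM). By FPKM, 2 of the 12 markers were thus wholly above WT and 1 was wholly below. Adrb3 also passed the nominal limits upward. The part of these markers in the difference between the 2 denominators was not tested.

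**Figure D2:**
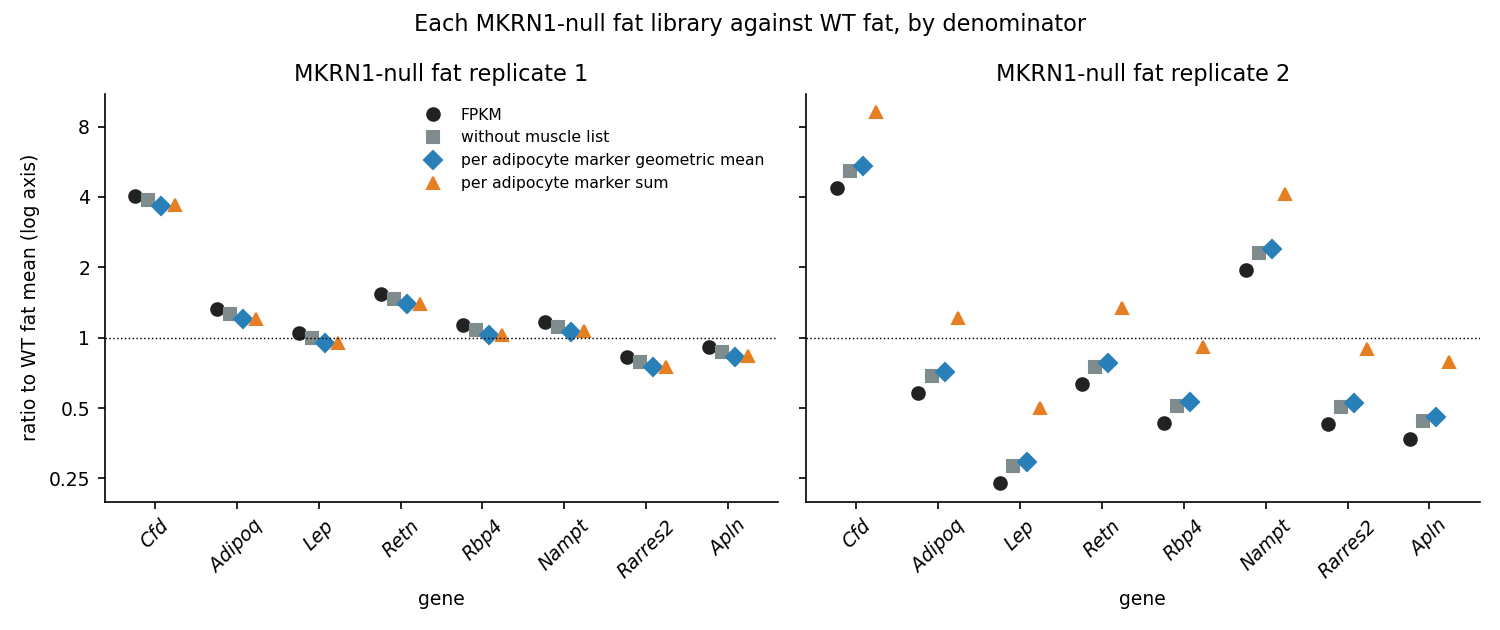
Ratio of each MKRN1-null fat library (replicate 1 left, replicate 2 right) to the WT fat mean on a log axis for the 8 genes. Circles are FPKM, squares FPKM rescaled without the 15 muscle genes, diamonds FPKM per geometric mean of 12 adipocyte markers and triangles FPKM per summed markers. Cfd is 3.67 to 9.24 times the WT mean in every case, Lep is close to 1 in replicate 1 and 0.24 to 0.50 in replicate 2, and Adipoq and Retn cross 1 in replicate 2 with the marker sum only.

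Setting the genes against Adipoq within a library gives a ratio that needs no scaling between libraries. Cfd to Adipoq was 0.42 and 0.44 in WT fat and 1.33 and 3.29 in MKRN1-null fat. Lep to Adipoq was 0.46 and 0.43 in WT fat and 0.35 and 0.18 in MKRN1-null fat, so here both null libraries were lower. Retn to Adipoq was 0.49 and 0.52 against 0.59 and 0.55, with both null values higher. The ratios of Rbp4, Rarres2 and Apln to Adipoq were lower in both null libraries and that of Nampt overlapped. Adipoq itself was at 1.32 and 0.58 times the WT mean by FPKM in the null libraries, which enters every one of these ratios. The share of all genes placed apart on this scale was not computed, so these placements are a description.

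As a share of the summed FPKM of the 8 genes, Cfd was 15.6% and 16.1% in WT fat and 37.8% and 62.1% in MKRN1-null fat. Adipoq made up 36.8% and 36.5% in WT fat and 28.5% and 18.9% in MKRN1-null fat. Lep made up 16.9% and 15.7% in WT fat and 10.04% and 3.46% in MKRN1-null fat. These shares are parts of a single sum, so a higher Cfd level lowers the shares of the others. By FPKM, Lep was at 1.05 and Adipoq at 1.32 times the WT mean in null replicate 1. The 8 genes together made up 1.66% and 1.59% of all FPKM in WT fat and 2.64% and 1.66% in MKRN1-null fat. Replicate 2 thus held about as large a share of adipokine transcripts as WT fat. By FPKM, Cfd and Nampt were above both WT libraries there and the other genes below both.

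**Figure D3:**
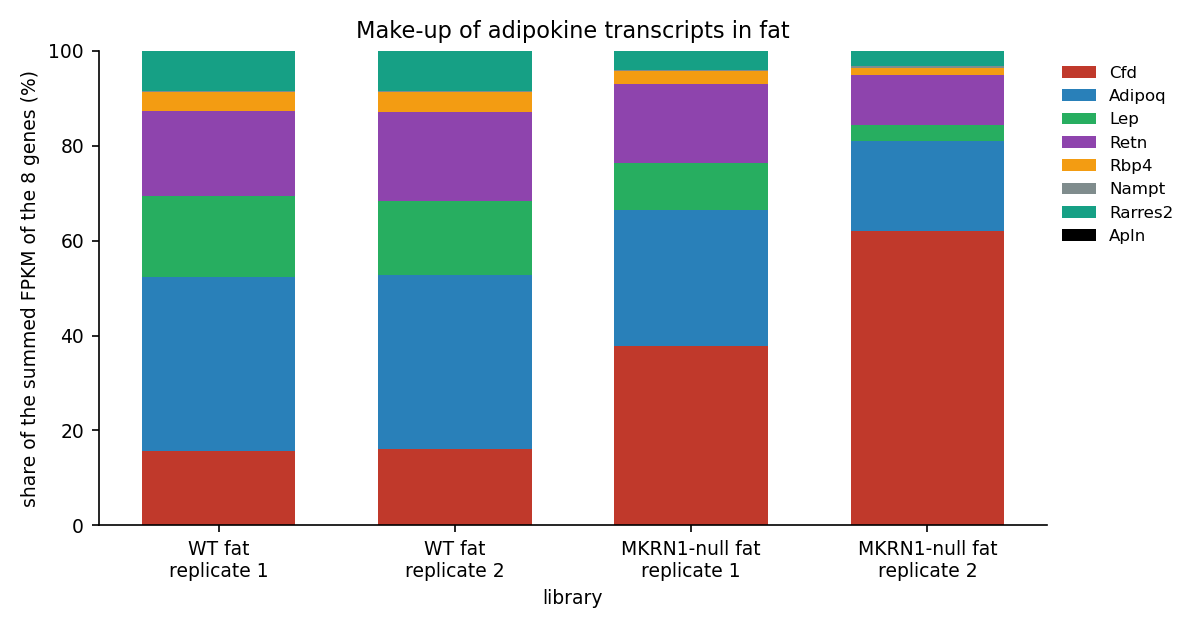
Share of the summed FPKM of the 8 genes taken by each gene, in percent, in the 4 fat libraries. Cfd makes up 15.6% and 16.1% in the WT libraries and 37.8% and 62.1% in the MKRN1-null libraries, and Lep 3.46% in MKRN1-null replicate 2.

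Exon coverage, divided by library depth, tells whether the Cfd difference sat in 1 stretch of the transcript. The gene lies on the plus strand at chr10:79890853-79892655 (mm10) and has 5 exons. Coverage in MKRN1-null fat was 3.94 to 4.73 times the WT mean in each of the 5 exons in both null libraries. The difference thus ran along the whole transcript. Of the transcripts listed for Cfd, NM_001291915 took 56.6% and 57.8% of its FPKM in WT fat and 57.4% and 57.0% in MKRN1-null fat, so the isoform shares were alike where the level differed.

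Lep (chr6:29060221-29073876, plus strand) and Adipoq (chr16:23146536-23157968, plus strand) were equally even. In null replicate 2 the 3 exons of Lep had 0.24, 0.26 and 0.24 times the WT coverage, and in replicate 1 they had 1.09, 0.95 and 1.05 times. The 3 exons of Adipoq were at 1.53, 1.39 and 1.299 times in replicate 1 and at 0.55, 0.58 and 0.58 times in replicate 2. Every exon of both genes therefore showed the split between the null libraries that the gene sums showed. Lep lies 10.3 Mb and Rarres2 9.15 Mb from Mkrn1 on chromosome 6, and whether strain differences near the null allele bear on their values was not tested.

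**Figure D4:**
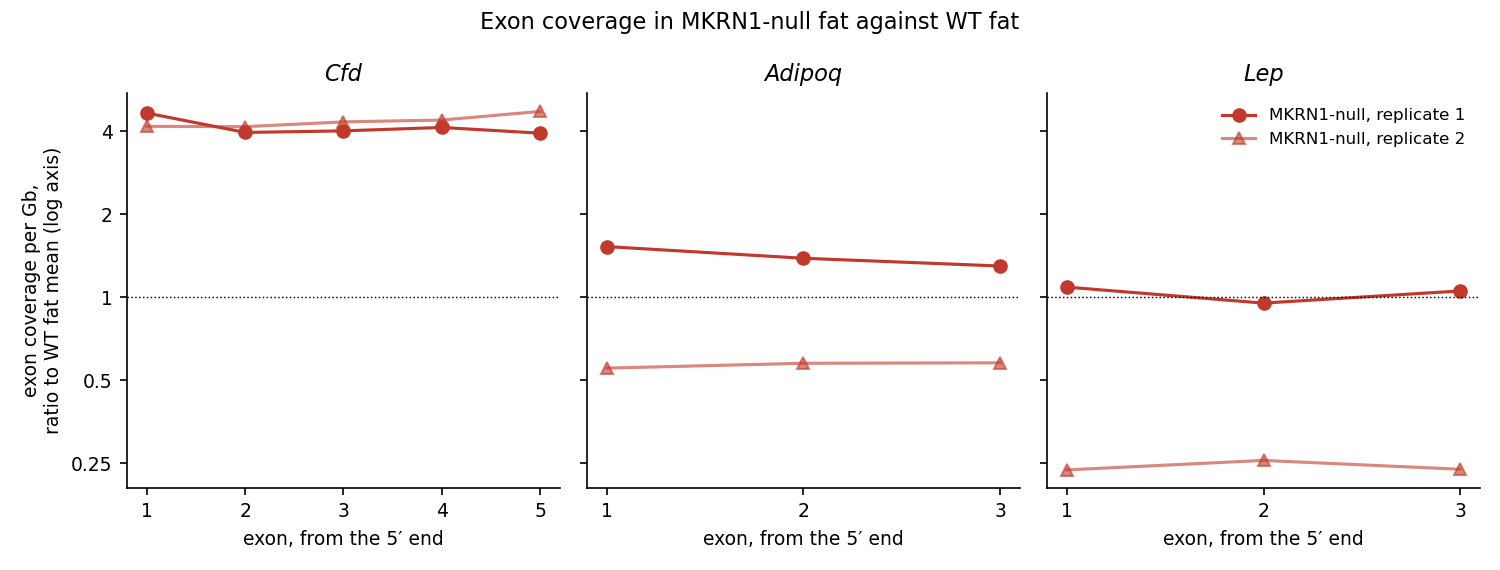
Coverage of each exon per Gb of aligned bases in the MKRN1-null fat libraries as a ratio to the WT fat mean (log axis), by exon from the 5′ end, for Cfd, Adipoq and Lep. Circles are replicate 1 and triangles replicate 2. All Cfd exons lie between 3.94 and 4.73 in both libraries, while Lep exons lie at 0.95 to 1.09 in replicate 1 and 0.24 to 0.26 in replicate 2.

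The 250 bases upstream of the annotated start are shown for these 3 genes because Cfd alone of them separated by genotype, while all of them are known as adipocyte transcripts. The sequences are those of RefSeq on GRCm38.p6, given 5′ to 3′ on the strand of the gene. Capitals mark matches to 5 motifs: TTGCNNAA of C/EBP factors, AGGTCA of nuclear receptor half-sites, CACGTG of E-boxes and CCAAT on both strands, and TATAAA on the forward strand. The windows are chr10:79890603-79890852 for Cfd, chr16:23146286-23146535 for Adipoq and chr6:29059971-29060220 for Lep.
Cfd: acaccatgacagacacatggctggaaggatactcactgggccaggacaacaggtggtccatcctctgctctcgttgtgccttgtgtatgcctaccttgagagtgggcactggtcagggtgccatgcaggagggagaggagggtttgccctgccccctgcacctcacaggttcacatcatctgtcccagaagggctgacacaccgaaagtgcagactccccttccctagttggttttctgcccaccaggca
Adipoq: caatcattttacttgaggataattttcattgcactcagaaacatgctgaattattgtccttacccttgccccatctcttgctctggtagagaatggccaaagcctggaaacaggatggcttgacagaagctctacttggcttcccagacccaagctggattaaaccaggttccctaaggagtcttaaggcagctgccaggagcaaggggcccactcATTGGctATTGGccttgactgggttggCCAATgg
Lep: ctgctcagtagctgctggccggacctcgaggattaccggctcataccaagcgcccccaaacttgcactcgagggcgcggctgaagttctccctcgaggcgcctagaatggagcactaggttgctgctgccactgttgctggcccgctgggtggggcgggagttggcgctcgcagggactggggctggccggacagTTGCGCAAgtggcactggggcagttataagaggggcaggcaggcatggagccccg
The Lep window holds 1 C/EBP match, TTGCGCAA, 55 to 48 bases before the start, which reads the same on both strands. The Adipoq window holds 3 CCAAT matches within its last 34 bases, 2 of them on the reverse strand. None of the 5 motifs occurs in the Cfd window, which says only that those letters are absent from these bases. Of 32851 RefSeq promoter windows of this length, 9.56% hold the C/EBP letters, 33.8% CCAAT, 14.0% the half-site, 6.02% the E-box and 7.59% the TATA letters. Windows were also given for Retn, Rbp4, Nampt and Apln, and none of them is printed; Rarres2 was not among the genes with a window.

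Profiles over the 8 libraries were compared to find the genes nearest to Cfd, Adipoq and Lep. Among 12150 genes, the profiles of log2(FPKM + 1), each centred on its own mean, nearest to Adipoq were those of Retn, Sncg and Lep, at root mean square differences of 0.38, 0.46 and 0.80. Nearest to Lep were Plin1, Sncg and Retn, at 0.45, 0.45 and 0.53. For Cfd the nearest were Adig, Pi16 and Timp4, at 0.97, 0.98 and 0.98, so no gene came as close to Cfd as the closest came to the others. Timp4, an inhibitor of metalloproteinases, was at 60.7 and 54.8 in WT fat and 153 and 89.6 in MKRN1-null fat. The contrast of fat with liver dominates all these profiles, and they are a description. They include the fat libraries by which the set was chosen, so the distance of Cfd contains its genotype gap and is no separate finding. Cfd also varied in liver, at 5.50 and 16.7 in WT and 23.5 and 6.79 in MKRN1-null libraries. Adig, Pi16 and Timp4 were at most 0.236 there. How much the fat gap and the liver values each added to the distance was not tested.

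The partners of these hormones were read in fat from lists of genes. Over all genes tested in fat, 0.708% passed the nominal limits upward and 5.35% downward. Of the receptor list, 11 of 13 genes were tested, 0 passed the nominal limits upward and 2 downward, with a median log2 fold change of -0.25 beside -0.20 for all genes. These were Aplnr, the apelin receptor, at 20.6 and 28.8 in WT fat and 7.13 and 4.07 in MKRN1-null fat, and C5ar1, a receptor for complement fragment C5a, at 17.6 and 20.9 against 2.48 and 5.42. Of 5 endothelial markers, 3 passed the limits downward in the same libraries, with a median of -1.22, and their part in the Aplnr values was not tested. The adiponectin receptor genes did not pass: Adipor1 was at 47.2 and 50.1 in WT fat and 48.7 and 79.7 in MKRN1-null fat, and Adipor2 at 145 and 153 against 170 and 124. Of the alternative complement list, in which adipsin acts, 7 of 11 genes were tested and none passed in either direction, with a median of -0.38. C3, the precursor that the pathway cleaves, was at 241 and 188 in WT fat and 223 and 176 in MKRN1-null fat, and Cfb, the substrate of adipsin, at 235 and 193 against 284 and 104, and the genotypes overlapped for both.

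Among other secreted factors of fat, 28 of 34 genes were tested, of which 1 passed the nominal limits upward and 6 downward, with a median of -0.62. Of all genes tested in fat, 0.708% passed upward and 5.35% downward, with a median of -0.20. Cck and Angptl8 had the widest differences. Cck, encoding cholecystokinin, was at 16.6 and 7.89 in WT fat and 0.395 and 0.083 in MKRN1-null fat, and Angptl8, which restrains lipoprotein lipase after feeding, was at 48.1 and 79.6 against 10.9 and 3.37. Lcn2, a siderophore-binding lipocalin, and Ccl2, a monocyte chemokine, followed, at 7.12 and 8.88 in WT fat and 1.502 and 0.798 in MKRN1-null fat for Lcn2 and at 56.0 and 34.3 against 24.8 and 11.6 for Ccl2. The gene that passed upward was Agt, encoding angiotensinogen, at 6.00 and 7.44 against 15.6 and 11.5. Transcripts of 8 macrophage markers summed to 786 and 1172 in WT fat and to 910 and 274 in MKRN1-null fat, with no marker at 0, and their part in the low Ccl2 and Lcn2 values was not tested.

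For the lists that follow, the shares of all genes tested in fat were again 0.708% upward and 5.35% downward. Of 16 adipocyte regulators, 15 were tested, 0 passed upward and 2 downward, with a median of -0.35. They were Cebpb, a C/EBP factor of early adipocyte differentiation, at 76.8 and 75.5 in WT fat and 36.9 and 44.4 in MKRN1-null fat, and Prdm16, a regulator of beige adipocytes, at 2.68 and 2.54 against 1.68 and 1.17. Pparg was at 115 and 116 against 102 and 54.5. None of the 11 tested genes of adiponectin folding and release and none of the 14 tested genes of NAD salvage and use passed the limits, with medians of -0.21 and -0.02. In the retinol transport list, 1 of 5 tested genes passed upward, Aldh1a1, a retinaldehyde dehydrogenase, at 57.3 and 51.7 in WT fat and 102.5 and 107.7 in MKRN1-null fat. Counts for MKRN1-null fat replicate 1 alone, added after the data were seen, differed between the lists. Below both WT values were 6 of 11 receptor genes, 16 of 28 secreted factors and 10 of 15 regulators, with 2, 10 and 1 above. Of the adiponectin assembly, NAD, complement and retinol lists, 2, 4, 2 and 1 genes were below and 5, 6, 3 and 2 above. Over all tested genes, 44.8% were below and 30.2% above in that library, and of the 8 adipokine genes 1 was below and 6 above.

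In liver the 8 genes fell into those it makes itself and those near 0. Rbp4, for which the liver is the main source, was at 3083 and 3425 in WT liver and at 4112 and 3668 in MKRN1-null liver, ranking 18th to 21st of all genes. Both null values were higher, and the log2 fold change was 0.26 ± 0.12 (SE, n = 2 per group) with an adjusted p of 0.189 by limma, short of the threshold. The difference was 0.0017 with quantile normalization and 0.47 with median-of-ratios scaling, and neither passed. Rarres2 was at 553 and 583 in WT liver and at 520 and 533 in MKRN1-null liver, wholly lower by a log2 difference of -0.11 ± 0.09 (adjusted p = 0.394, limma). Nampt was at 15.0 and 11.2 against 14.9 and 14.7, with an adjusted p of 0.426 by limma for a log2 difference of 0.18 ± 0.15.

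Cfd did not separate by genotype in liver. Its FPKM was 5.50 and 16.7 in WT liver and 23.5 and 6.79 in MKRN1-null liver, and each group held a high and a low library. The log2 difference was 0.37 ± 0.71 with an adjusted p of 0.735 by limma. Leaving out MKRN1-null liver replicate 1 turned it to -0.46 and leaving out WT liver replicate 1 turned it to -0.36. Adipoq, read beside it as a mark of adipocytes, was at 0.193 and 0.223 in WT liver and 0.225 and 0.148 in MKRN1-null liver, and whether fat carried along with the tissue bears on Cfd there was not tested.

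None of the 4 tested genes passed in liver, where limma called 2.52% of 10809 genes higher and 16.9% lower in MKRN1-null mice. By an unadjusted p under 0.05 the count for the 4 was also 0, where 39.6% of all tested genes had one. Higher genes were 12.9% of all calls, 35.4% with median-of-ratios scaling and 38.6% with quantile normalization. One gene of the 4 was wholly above WT and 1 wholly below, where 11.8% and 57.6% of all tested genes were. Adipoq, Lep, Retn and Apln were at most 0.301 in any liver library, with a mean coverage of at most 2.24 reads per base, and were not tested. A difference between genotypes was not detectable for them at this depth.

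Of 79 partner genes tested in liver over the 7 lists, 15 passed the adjusted threshold (19.0%), beside 19.5% of all tested genes. By direction, 2.52% of all tested genes rose and 16.9% fell. In the retinol transport list, 0 of 7 tested genes rose and 2 fell, with a median of -0.37 beside -0.17 for all genes. They were Aldh1a7 (log2 fold change -0.97 ± 0.22, adjusted p = 0.0444, limma) and Aldh1a1 (-0.66 ± 0.13, adjusted p = 0.0352). Ttr, the plasma partner of Rbp4, was at 6525 and 5822 in WT liver and 5595 and 5281 in MKRN1-null liver and did not pass. Of the receptors, 4 of 13 were tested and 1 fell, Cap1, an actin-regulating protein reported to bind resistin, by 0.52 on the log2 scale (adjusted p = 0.0239, limma).

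Of 22 tested secreted factors in liver, 3 rose and 5 fell, with a median of -0.40. For this and the lists below, 2.52% of all genes tested in liver rose and 16.9% fell, with a median of -0.17. The genes that rose were Angptl8 (43.4 and 78.2 in WT liver, 155 and 181 in MKRN1-null liver), Enho, encoding adropin, and Igf1. Lcn2 went from 62.3 and 51.2 to 7.08 and 2.98, Dpt from 11.9 and 7.63 to 2.02 and 2.20, and Lpl, lipoprotein lipase, from 8.93 and 7.49 to 2.20 and 2.12. Ccl2 and Fstl1 were the other genes that fell. Macrophage markers fell for 4 of 7 tested and fibroblast markers for 6 of 8 tested in MKRN1-null liver, and their part in these values was not tested. Fgf21, a hepatic fasting hormone, at 15.7 and 21.1 against 9.42 and 3.01, had an adjusted p of 0.0767 by limma and did not pass. Among 12 tested adipocyte regulators, Pparg fell (17.6 and 19.8 to 6.36 and 4.48, adjusted p = 0.0136, limma) and Klf15 rose (47.1 and 41.9 to 68.5 and 66.8, adjusted p = 0.0222, limma). Of 14 tested NAD genes, Nnmt, which methylates nicotinamide, rose (56.0 and 40.3 to 83.4 and 89.8) and Nadk fell (94.7 and 88.1 to 63.8 and 62.3). None of the 10 tested complement genes and none of the 11 adiponectin assembly genes passed the adjusted threshold.

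WT fat was set against WT liver to see which of the 8 transcripts belong to fat. Adipoq, at 2899 and 2873 in fat and 0.193 and 0.223 in liver, had a log2 difference of 11.22 ± 0.08 (SE, n = 2 per group). Retn and Lep followed with 10.43 ± 0.08 and 10.20 ± 0.09, on liver levels of at most 0.0977. Cfd was higher in fat by 6.87 ± 0.47 and Apln by 2.996 ± 0.197. Rbp4 was higher in liver, with a log2 difference of -3.38 ± 0.11. With liver at or near 0, these sizes depend on the pseudocount: at 0.1 in place of 1 they were 13.22 for Retn, 13.20 for Adipoq, 12.72 for Lep and 4.94 for Apln, so that Retn and Adipoq changed places. The largest adjusted p among these 6 genes was 0.00017 by limma. All 6 passed, and for each of them the levels in the 2 tissues did not overlap. That was so for 69.9% of all tested genes upward and 21.1% downward. Adipoq, Lep, Retn and Apln, at most 0.301 in WT liver, met the filter only through WT fat. Their passing and placement are therefore a description and not a test.

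For Rarres2 and for Nampt the levels of the 2 tissues lay close together. Rarres2 differed by 0.23 ± 0.09 (adjusted p = 0.0667, limma) and Nampt by 0.33 ± 0.15 (adjusted p = 0.103, limma), short of the threshold in the fit as designed. Whether they passed depended on the scaling. With median-of-ratios scaling both signs turned, and Rarres2 passed at -0.48 (adjusted p = 0.0104, limma) while Nampt, at -0.34, did not. Rarres2 passed as higher in fat with quantile normalization (0.40, adjusted p = 0.0116), and both passed as higher in fat with TPM (0.41 and 0.51) and without muscle genes (0.39 and 0.48). No direction is therefore given for either gene. Of all 12782 genes tested in this contrast 62.3% were higher and 17.9% lower in fat (80.2% in either direction), so 6 of 8 genes past the threshold is a share near that of all genes. Higher genes were 77.7% of the calls, 49.98% with median-of-ratios scaling and 56.5% with quantile normalization. By level, the order in WT fat was Adipoq, Retn, Lep, Cfd, Rarres2, Rbp4, Nampt and Apln, where Lep (1283 ± 70.7, SD, n = 2) and Cfd (1251 ± 28.2) did not differ beyond their spread. In WT liver it began with Rbp4 (3254 ± 241) and Rarres2 (568 ± 21.4), and Nampt (13.1 ± 2.73) and Cfd (11.1 ± 7.93) overlapped.

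Isoform shares of the other multi-transcript genes varied little. The Rbp4 transcript NM_001159487, which starts upstream of the main one, made up 5.51% and 6.42% of Rbp4 in WT fat and 7.25% and 8.35% in MKRN1-null fat. In liver it made up 5.18% and 5.94% against 6.63% and 6.43%. Both null values were above both WT values in each tissue, by small margins, and how many other transcripts did the same was not counted. Retn was 98.4% to 98.9% NM_001204959 in fat, and the main Rarres2 transcript, NM_027852, took 63.6% to 66.5% in fat and 61.2% to 64.2% in liver.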

How the data were processed

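Libraries were made from total RNA of subcutaneous fat and liver (2 per genotype and tissue). Poly(A) RNA was sequenced per the study's methods. The submitters' processing notes name HISAT2, SAMtools, StringTie and mm10, and the file headers show StringTie, whereas the study's methods name TopHat, Cufflinks and HTSeq; the notes and headers were followed for these files. The deposited values are FPKM per transcript from the authors' StringTie 1.3.3b run against a RefSeq annotation, with coverage and TPM beside them, for 36780 transcripts in each of the 8 tables. No read counts were used, so no count test was run.

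FPKM was summed per Entrez gene, of which 24471 of 24532 had a symbol. A gene was tested in a contrast where 2 or more of its 4 libraries reached an FPKM of 1, with limma 3.58.1 (R 4.3.3; lmFit, eBayes with trend) on log2(FPKM + 1), which understates changes of low genes, with Benjamini-Hochberg adjustment over all tested genes. Genes were also counted at nominal limits, an unadjusted limma p no higher than 0.05 with the study's fold limit (0.58 on the log2 scale); the study's own p combined permutation p-values of a pair of statistics and was not recomputed. The limma code was tested on simulated data. Depth was taken as coverage over FPKM.

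The 8 genes and the 17 lists were chosen with earlier results of these data known, and 1 list gene is not reported here. Named were the 8 genes, Mkrn1, up to 4 genes per list with the largest absolute log2 fold change among those past either limit in a tissue, and the 3 nearest profiles to Cfd, Lep and Adipoq among genes passing the filter in fat; a few further list genes (Adipor1, Adipor2, C3, Cfb, Pparg in fat, Ttr, Agt, Nmrk2, Slc2a4 and Cidea in fat, and Angptl8, Enho, Igf1, Ccl2, Fstl1 and Adrb3 in liver) were added after their values were seen. Alternatives were a pseudocount of 0.1, TPM, no filter, a minimum of 5, median-of-ratios and quantile scaling, rescaling without muscle genes, an all-library fit, no trend, a replicate block, each library left out, single transcripts and adipocyte marker denominators. Fat and liver libraries with 1 number carry the same animal code in their deposited names and were read as 1 mouse, which pairs the tissue contrast (correlation of same-numbered deviations 0.06 across genes); its printed errors and p-values are from the fit without that block.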

Additional observations from a re-analysis of the deposited data

Results flagged for a closer look

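Of the genes named in either tissue, 2 were placed on opposite sides of WT in fat and liver, with every null library beyond both WT libraries. Angptl8 had a log2 fold change of -3.13 in fat and 1.51 in liver, and Aldh1a1 had 0.94 in fat and -0.66 in liver. The difference between the tissues was not tested for either gene. Of all tested genes, 9.03% lay wholly above WT and 36.1% wholly below in fat, and 11.8% and 57.6% in liver. The share placed on opposite sides in the 2 tissues was not computed. List genes were named partly for large differences in these data, so the count is a description.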

How the results depend on the processing

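Of the 8 genes, 3 lay wholly outside WT in fat, a count that became 6 per adipocyte marker sum, 5 per marker geometric mean (added after the data were seen) and 3 to 8 when 1 library was left out (8 without MKRN1-null replicate 1, 7 without MKRN1-null replicate 2, where 1 library stands for the group). Cfd kept its direction in fat under every alternative run, but these reuse the fat libraries by which the set was chosen and add no independent support. Over all fat genes the 0 adjusted calls became 1 with all 8 libraries in 1 fit and 4 to 6284 with 1 library left out (6284 without MKRN1-null replicate 1, 4 without MKRN1-null replicate 2, 71 without WT replicate 1, 99 without WT replicate 2). A lone library was assumed to vary like the other group. The 736 genes at the nominal limits became 436 at a minimum FPKM of 5, 1402 with all 8 libraries and 496 to 5195 with 1 left out. With the replicate number as a block, 422 genes passed the adjusted threshold in fat and 1435 the nominal limits. The correlation of same-numbered deviations was 0.11 in fat and 0.01 in liver, and nothing in the labels pairs WT with null mice. The block changed no call of the 8 genes in liver or between tissues. In liver, 4 single-gene values turned sign, none past the threshold: Rarres2 to 0.10 with median-of-ratios scaling, Nampt to -0.023 without WT replicate 2 (-0.023 to 0.37 with 1 library left out), and Cfd to -0.36 and -0.46 without replicate 1 of WT or null (-0.46 to 1.19). Between WT tissues, Nampt turned to -0.34 and -0.12 with median-of-ratios and quantile scaling, and Rarres2 to -0.48 with median-of-ratios scaling, where it passed (adjusted p = 0.0104, limma); the cause was not tested. Of the 8 genes, 6 passed between WT tissues, 7 with median-of-ratios or quantile scaling, single transcripts or without WT liver replicate 1, and 8 with TPM or without muscle genes, the gains being Rarres2 and Nampt. Median-of-ratios scaling moved the median log2 fold change of all genes from -0.20 to 0.01 in fat, from -0.17 to 0.00 in liver and from 0.59 to -0.01 between WT tissues. In fat it put Adipoq and Retn above 0, and rescaling without muscle genes put Retn at 0.07. With 2 libraries a group and FPKM in place of counts, small differences cannot be resolved.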

Other observations

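Of the 12 adipocyte markers, 8 were tested in liver, where 1 rose (Adrb3) and 4 fell in MKRN1-null mice (limma, adjusted p under 0.05; 2.52% and 16.9% of all tested genes), with a median log2 fold change of -1.21 beside -0.17 for all genes. Cidec, a lipid droplet fusion protein, was at 97.1 and 86.5 FPKM in WT liver and 14.3 and 2.69 in MKRN1-null liver, Cidea at 24.3 and 64.5 against 3.49 and 0.319, and Plin4 at 35.5 and 23.0 against 8.73 and 3.58. Fabp4 was at 47.3 and 44.6 against 14.7 and 12.8. Adipoq, Lep and Retn were near 0 in the same libraries.

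In fat, Cyp2e1, a cytochrome P450 on the hepatocyte list that fat also expresses, was at 40.3 and 72.7 FPKM in WT libraries and 451 and 278 in MKRN1-null libraries. Alb was at 2.77 and 4.52 against 8.96 and 16.5, and 3 of 9 genes of that list were tested. Adrb3, the beta-3 adrenergic receptor of adipocytes, was at 28.0 and 54.6 against 93.3 and 93.6. All 3 genes passed the nominal limits upward, as did 0.708% of all tested genes, and none passed the adjusted threshold.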
